A study of Mus musculus with 10 samples.

Results

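C1q-positive macrophages are described here from 10 single-cell libraries of sorted mouse lung cells. A barcode counted as one when it had at least 1000 genes, at most 50000 UMIs and at most 15% mitochondrial UMIs, held at least 1 UMI of each of C1qa, C1qb and C1qc, and had a UMI of fewer than 4 of 6 alveolar macrophage genes (Chil3, Ear2, Atp6v0d2, Fabp1, Ccl6 and Ltc4s). A UMI (unique molecular identifier) stands for 1 captured RNA molecule. The rule kept 299 barcodes out of 32698 that met the quality limits, which is 0.914% (95% exact Clopper-Pearson interval 0.814 to 1.02%), and the files held 42012 barcodes in all. Because the RNA of these cells chose them, their profile beside other cells is given as a description with no test.

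The study followed alveolar type 2 (AT2) cells, the surfactant-making stem cells of the alveolus, through the first steps after an oncogenic mutation. All mice were given 3 doses of tamoxifen, each 0.2 mg per g of body weight, which switches on a colour in cells that express Sftpc. With the Sftpc-CreERT2; Red2Kras genotype, RFP marks mutant cells and YFP+ cells are wildtype cells of the same lungs, whereas in Sftpc-CreERT2; R26R-Confetti mice both colours mark wildtype cells. EpCAM+ cells of 1 colour were sorted from the distal lung of 8-week-old mice of mixed background (C57BL/6Brd-Tyrc-Brd), with lungs of more than 1 mouse pooled for each library. Red2Kras contributed RFP and YFP libraries at 4 days and at 2 weeks, each in duplicate, and Confetti contributed 1 RFP and 1 YFP library, for which the labels give no time and the methods give 2 weeks. The Cre driver and the gate both select epithelial cells, and the colour of a library is that of its sort gate. Whether the macrophages carried the colour or the mutation was not tested. The labels call the sorted cells AT2-derived, while the members' markers, given with their values further on, are those of macrophages.

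C1q is the recognition molecule of the classical complement pathway, built from A, B and C chains, and unlike most complement proteins it is made mainly by macrophages. Lung macrophages fall into alveolar macrophages, which live in the airspace and clear surfactant, and interstitial macrophages, which live in the tissue, make C1q and present antigen on MHC class II molecules. Among interstitial macrophages, cells with Lyve1 and Folr2 lie along vessels and cells with high MHC class II lie closer to nerves and airways.

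The chain genes are neighbours on the minus strand of chromosome 4 in GRCm38, with C1qb at chr4:136880129-136886187, C1qc at chr4:136889804-136893065 and C1qa at chr4:136895917-136898803. The members were chosen on these neighbouring genes. The promoter set used here had no entry for C1qa, so the promoters of C1qb and C1qc are shown. Both windows come from RefSeq (GRCm38.p6), run from 250 bases before to 50 bases after the start and are printed 5′ to 3′ on the gene's strand. Capitals mark the only match in each window to 1 of 3 motifs searched on both strands. It is AGGAAGT, a motif of ETS factors such as PU.1, on the opposite strand, beginning 53 bases before the RefSeq start in C1qb and 195 bases before it in C1qc. The gene spans above come from GENCODE, and the RefSeq start of C1qc lies inside its span, so distances from the GENCODE starts differ.
C1qb, chr4:136886151-136886450: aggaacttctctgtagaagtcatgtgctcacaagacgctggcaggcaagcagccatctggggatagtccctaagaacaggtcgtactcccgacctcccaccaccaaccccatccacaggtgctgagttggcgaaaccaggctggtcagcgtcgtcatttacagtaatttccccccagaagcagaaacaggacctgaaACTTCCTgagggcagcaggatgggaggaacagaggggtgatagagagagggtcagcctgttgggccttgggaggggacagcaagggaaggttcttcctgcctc
C1qc, chr4:136892865-136893164: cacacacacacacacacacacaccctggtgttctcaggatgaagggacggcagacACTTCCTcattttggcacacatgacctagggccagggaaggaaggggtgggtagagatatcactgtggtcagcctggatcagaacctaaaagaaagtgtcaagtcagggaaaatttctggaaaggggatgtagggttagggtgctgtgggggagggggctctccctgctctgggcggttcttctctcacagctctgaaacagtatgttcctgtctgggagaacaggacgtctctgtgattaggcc

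Of 32851 RefSeq promoter windows of this length, 9.35% held AGGAAGT on either strand, 4.67% held TGCTGAC (a motif of MAF factors) and 5.20% held TGACTCA (AP-1). No match in the printed windows overlaps another, and a match is a description of sequence and not a binding site. Mgl2 lies at chr11:70130329-70137550, Mmp12 at chr9:7344381-7369499 and Ccl12 at chr11:82101845-82103400. Ccl12 sits within 1 cluster of chemokine genes with Ccl2 (chr11:82035571-82037453), Ccl7 (chr11:82045712-82047525) and Ccl8 (chr11:82115185-82116799).

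Each library held 1736 to 4445 barcodes within the quality limits and 10066868 to 73254713 UMIs in them. The members had median UMI counts of 2728 to 11371.5 per library, and 6 libraries held at least 20 members, 265 in all. Of the deposited barcode sequences, 478 (1.138%) occurred in more than 1 library. Of the members, 8 had a barcode that was also present in another library, and 0 barcodes were members in more than 1 library. Intervals on shares and counts cover counting error only.

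The rule separated few barcodes with many C1q molecules from many with none. No C1q UMI was found in 32196 of the filtered barcodes, 146 had UMIs of 1 chain gene, 28 of 2 and 328 of all 3. Members held a median of 62 C1q UMIs, and the barcodes with 2 chain genes, just outside the rule, held a median of 4. On the alveolar side, 31 members had 3 of the 6 alveolar macrophage genes and a median of 90 C1q UMIs. Another 29 barcodes had all chains and 4 or more alveolar genes, and so were left out, with a median of 28 C1q UMIs. As the background of C1q UMIs, among 21265 epithelial barcodes (Epcam present, Ptprc at 0, median 6428 UMIs against 5718 in members) C1qa had a UMI in 0.136%, C1qb in 0.146% and C1qc in 0.0893%. The chains kept a similar ratio from library to library, with C1qa at 39.3 to 44.4% of the C1q UMIs, C1qb at 30.7 to 38.1% and C1qc at 20.3 to 30.0%.

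The members were found in all 10 libraries, at shares that differed widely between replicates of a group. At 4 days, RFP replicate 1 held 3 of 3838 filtered barcodes (0.0782%, 95% interval 0.0161 to 0.228%) and RFP replicate 2 held 65 of 1736 (3.74%, 2.90 to 4.75%). The 4-day YFP replicates held 11 of 1913 (0.575%, 0.287 to 1.03%) and 44 of 3090 (1.42%, 1.04 to 1.91%). At 2 weeks, the RFP replicates held 34 of 4245 (0.801%, 0.555 to 1.12%) and 64 of 3528 (1.81%, 1.40 to 2.31%). The 2-week YFP replicates held 24 of 4445 (0.540%, 0.346 to 0.802%) and 34 of 1746 (1.95%, 1.35 to 2.71%). In each of these 4 groups the share was higher in replicate 2. Confetti RFP held 14 of 3980 (0.352%, 0.192 to 0.589%) and Confetti YFP held 6 of 4177 (0.144%, 0.0527 to 0.312%).

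**Figure D1:**
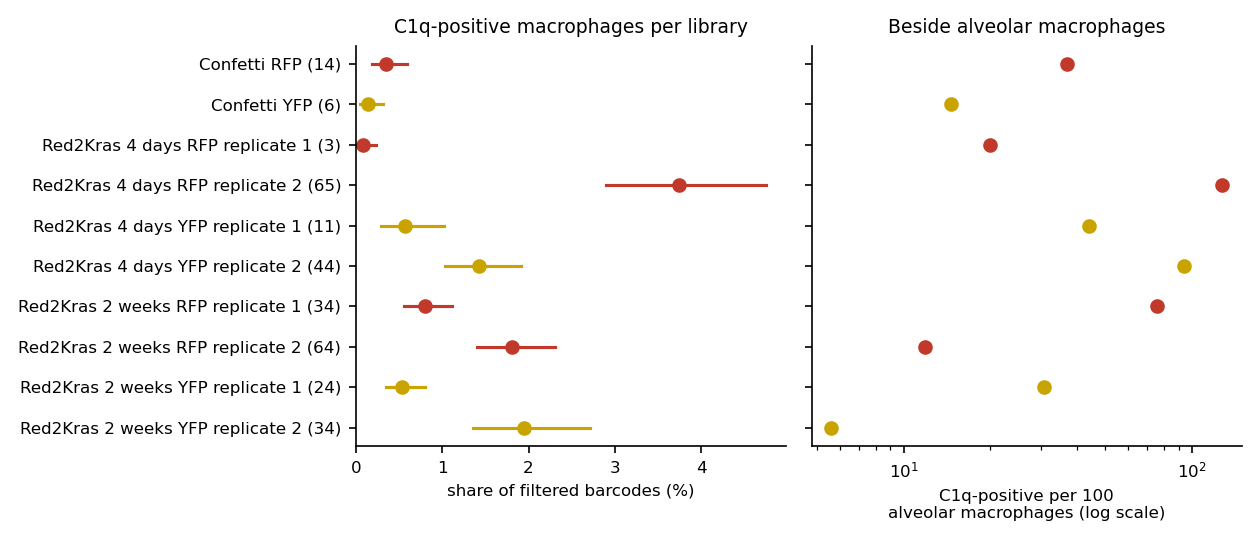
Left, C1q-positive macrophages as a percentage of filtered barcodes in each of the 10 libraries, with 95% exact intervals and the number of cells in parentheses. Right, C1q-positive macrophages per 100 alveolar macrophages in the same libraries on a log axis. Red marks RFP and yellow marks YFP libraries, and 4 days RFP replicate 2 is highest in both panels, at 3.74% and 127.

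The mean share was 1.91% ± 2.59 (SD, n = 2) in 4-day RFP, 0.999% ± 0.600 in 4-day YFP, 1.31% ± 0.716 in 2-week RFP and 1.24% ± 0.995 in 2-week YFP libraries. Red2Kras RFP libraries had a mean of 1.61% ± 1.59 (SD, n = 4) and YFP libraries 1.12% ± 0.686, a difference of 0.488 percentage points, and the RFP library was higher in 9 of 16 pairs. A two-sided exact permutation test gave p = 0.657 (adjusted p = 0.886 over 3 share comparisons). The 2-week libraries had a mean of 1.28% ± 0.709 and the 4-day libraries 1.46% ± 1.62, and the difference of -0.180 points gave p = 0.886 in the same exact permutation test (adjusted p = 0.886). With 4 libraries against 4 the smallest p the test can give is 0.0286. Without 4 days RFP replicate 2 both differences changed sign, to -0.224 points for RFP against YFP and to 0.583 points for 2 weeks against 4 days. Without 4 days RFP replicate 1 they were 0.998 and -0.639 points. The 8 Red2Kras libraries averaged 1.37% ± 1.16 and the 2 Confetti libraries 0.248% ± 0.147, a difference of 1.12 points (two-sided exact permutation p = 0.222, adjusted p = 0.667, smallest possible 0.0222, higher in 14 of 16 pairs). None of the 3 differences exceeded the spread between libraries by these tests. The replicates are pools of animals, and the labels do not say whether pools of different colour came from the same mice. The methods count 2 Red2Kras samples at each time and 1 Confetti sample, with both colours isolated. Libraries that differ in colour alone may therefore share mice, whereas these permutation tests take every library as independent.

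The ratio to alveolar macrophages, defined as filtered barcodes with at least 4 of the 6 genes, varied in another way. There were 1487 alveolar macrophages, with a lowest count of 15 in the first 4-day RFP replicate and a highest of 606 in the second 2-week YFP replicate. Per 100 alveolar macrophages there were 127 C1q-positive macrophages in 4 days RFP replicate 2 and 93.6 in 4 days YFP replicate 2. The corresponding 2-week libraries had 11.8 (RFP replicate 2, 541 alveolar macrophages) and 5.61 (YFP replicate 2). The replicate 1 libraries had 20 and 44 at 4 days and 75.6 and 30.8 at 2 weeks, and Confetti had 36.8 and 14.6. The replicate 2 libraries therefore lay at both ends of this range, and the replicate 1 libraries between them.

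The cells carried the general macrophage programme, and the label held against several of its markers, though not evenly for all. Levels are given in CPM, the UMIs of a gene per 1000000 UMIs summed over the members of a library, as mean ± SD over the 6 libraries with at least 20 members. Tyrobp and Fcer1g, adaptor genes of myeloid receptors, each had a UMI in 99.7% of members, against 0.955% and 1.19% of epithelial barcodes. Csf1r, the receptor for the main macrophage growth factor, was found in 75.9% of members against 0.428%, and Cd68 in 75.3% against 8.22%. Ptprc was less even, with a UMI in 36 of 65 members in 4 days RFP replicate 2 and 32 of 34 in 2 weeks RFP replicate 1. In Confetti YFP it was found in 0 of 6. Mertk, given further on, was lower than in alveolar macrophages. The lysozyme gene Lyz2 was found in 99.3% of members but also in 94.2% of epithelial barcodes, so its share does not mark macrophages here. Lyz2 had 9168 ± 1779 CPM (alveolar macrophages 14742), Csf1r 262 ± 40.8 (60.6), Cd14 744 ± 197 (154) and Mrc1 273 ± 45.4 (622). Summed over the 12 pan-macrophage genes the members had 17038 ± 1404 CPM and alveolar macrophages 23727. Epithelial barcodes summed to 19680 ± 9872 CPM over the same genes, among which Lyz2 is also a known AT2 gene, so this sum does not separate macrophages from epithelial cells. The 6 genes of the alveolar limit were low by selection, with Chil3 at 22.1 CPM against 13216 and Fabp1 at 0.262 against 1029.

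Genes of several other cell types were low, and epithelial genes are given further on. The lists summed to 35.4 CPM for neutrophil (alveolar macrophages 77.3), 38.4 for T and NK cell (0.554), 69.6 for B cell (2.16), 8.78 for mast cell and basophil (1.28), 1.30 for endothelial (0 to 3.89 over the libraries in alveolar macrophages) and 2.15 for mesenchymal genes (0.0916). Dendritic cell genes summed to 154 ± 69.6 CPM, against 11.8 in alveolar macrophages. Of them Flt3, which marks dendritic cells, had 5.08 CPM and a UMI in 2.68% of members, Xcr1 had 4.62 CPM and Clec9a 4.08 CPM, whereas the lectin genes Clec10a and Cd209a had 57.9 and 33.8 CPM. Monocyte genes summed to 642 ± 136 CPM against 378 in alveolar macrophages, and of them Ly6c2 had 14.5 ± 31.0 CPM. Ccr2, the receptor that brings monocytes into tissue, had 271 ± 41.1 CPM against 14.9 in alveolar macrophages and was found in 58.9% of members against 6.52% (35.1% and 1.34% with every cell thinned to 2000 UMIs).

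Among the 3 markers outside the C1q chains, Mgl2 was the most even across libraries and was nearly absent from alveolar macrophages. Its level in members was 514 and 510 CPM in 4-day RFP and YFP replicate 2. At 2 weeks it was 733 and 904 in RFP and 797 and 458 in YFP replicates 1 and 2, and in Confetti it was 930 in RFP and 547 in YFP. In Confetti YFP 1 of the 6 members held 23350 of their 42085 UMIs, and Mgl2 was at 1121 CPM there without it. The mean over the 6 libraries was 653 ± 183 CPM, against 5.71 in alveolar macrophages, and 77.6% of members had a UMI against 1.21%. Alveolar macrophages were the deeper cells (median 8613 UMIs against 5718), and with every cell thinned to 2000 UMIs the shares were 65.6% and 0.605%.

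Mmp12, the elastase of macrophages, was 764 and 421 CPM in 4-day RFP and YFP replicate 2. It was 1512 and 814 in the 2-week RFP and 1536 and 1030 in the 2-week YFP replicates 1 and 2, so that every 2-week value lay above both 4-day values. The mean was 1013 ± 442 CPM. Alveolar macrophages averaged 375 ± 508 CPM, a mean set by 1387 CPM in 2 weeks RFP replicate 1, where the members had 1512; in the other 5 libraries alveolar macrophages had 89.4 to 391 CPM. Mmp12 had a UMI in 53.8% of members and 20.4% of alveolar macrophages (43.5% and 10.4% thinned).

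Ccl12, a ligand of Ccr2, was the most uneven of the markers. It was 1354 and 384 CPM in 4-day RFP and YFP replicate 2, 190 and 722 in 2-week RFP and 352 and 321 in 2-week YFP. The highest level was well above the others, and the mean was 554 ± 430 CPM against 6.11 in alveolar macrophages. In the 3 members of 4 days RFP replicate 1, Ccl12 had 57 UMIs, or 7263 CPM, and Mmp12 had none.

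**Figure D2:**
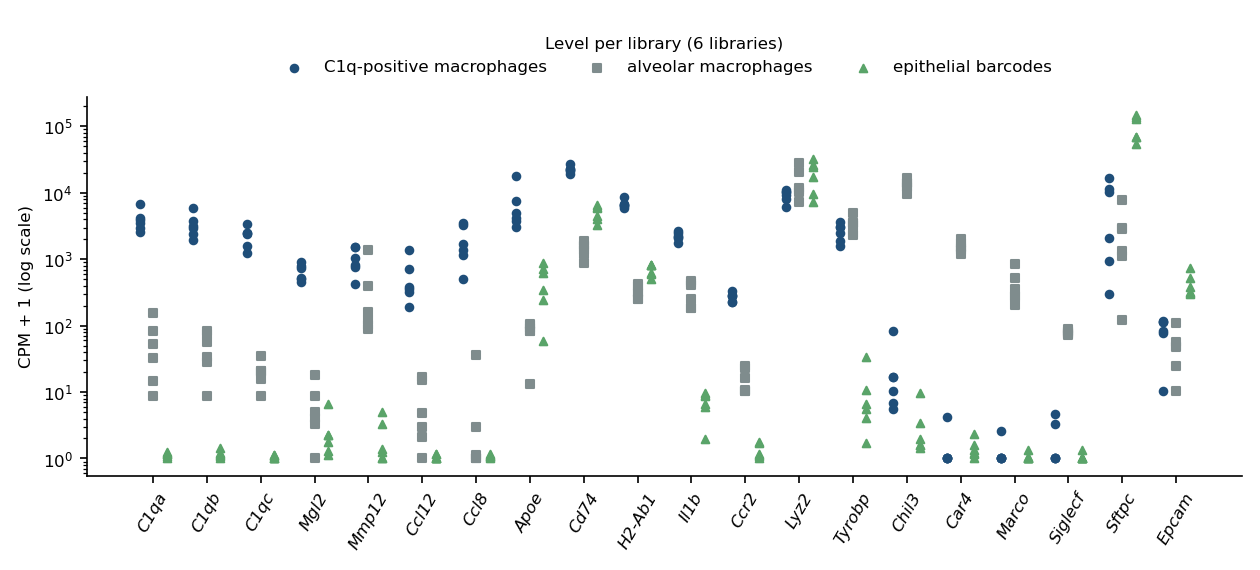
CPM + 1 on a log axis of 20 genes in the 6 libraries with at least 20 C1q-positive macrophages, with 1 point for each library and population: C1q-positive macrophages, alveolar macrophages and epithelial barcodes. Mgl2 lies at 458 to 904 CPM in the members and at 5.71 on average in alveolar macrophages, while Lyz2 is high in both.

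Genes used for interstitial macrophages were present, though not all to the same degree. Summed over 12 genes they had 9435 ± 6422 CPM in members and 884 in alveolar macrophages. Apoe, a lipid carrier, made up most of that sum and most of its spread: it was 3096 and 4223 CPM at 4 days, 3773 and 18069 in 2-week RFP and 4908 and 7535 in 2-week YFP libraries, against 78.5 in alveolar macrophages. Ms4a7 had 265 ± 132 CPM (alveolar macrophages 30.8), the lipid receptor gene Trem2 262 ± 125 (136), the complement C3a receptor gene C3ar1 112 ± 21.2 (10.1) and the fractalkine receptor gene Cx3cr1 103 ± 32.7 (10.1). Cx3cr1 had a UMI in 34.4% of members and 1.55% of alveolar macrophages (19.4% and 0.941% thinned).

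Antigen presentation genes were the largest difference in summed level among the lists. MHC class II genes and their partners summed to 45108 ± 4723 CPM in members, 2846 in alveolar macrophages and 7206 in epithelial barcodes, AT2 cells being known to make MHC class II. The invariant chain gene Cd74 had 22597 ± 2456 CPM, against 1419 in alveolar macrophages. H2-Eb1 had 7879 ± 768 (268), H2-Ab1 6818 ± 898 (324) and H2-Aa 5757 ± 931 (318). The co-stimulatory gene Cd86 had 98.1 ± 35.3 CPM against 5.15, and Ciita, the master regulator of MHC class II, 51.6 ± 28.5 against 6.35. Cd74 ranged from 19169 to 26701 CPM over the libraries, and from 874 to 1887 in alveolar macrophages.

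Signalling molecules for leukocytes were also abundant. Chemokine genes summed to 9962 ± 2825 CPM against 2084 in alveolar macrophages. Cxcl2, which attracts neutrophils, had 2629 ± 1009 CPM (1016), Ccl8 1901 ± 1201 (6.24), Ccl4 852 ± 299.9 (154) and the dendritic cell chemokine gene Ccl17 734 ± 512 (88.3). Ccl2 had 547 ± 228 (18.0) and Ccl7 471 ± 310 (1.93), both known monocyte attractants. The interleukin gene Il1b had 2227 ± 302 CPM, with a range of 1777 to 2644, against 324 in alveolar macrophages, and it was found in 74.9% of members and 38.5% of alveolar macrophages (63.9% and 19.1% thinned). Ptgs2, which makes prostaglandin precursors, had 158 ± 66.5 CPM against 10.9, while Tnf was at 83.0 ± 32.6 and 69.2.

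Other complement genes summed to similar levels in both populations, at 845 ± 167 CPM in members and 805 in alveolar macrophages. Within the list Cfp (properdin) had 190 ± 39.4 CPM against 64.9, whereas C3 had 82.4 ± 37.2 against 114. Lysosome and lipid genes also summed alike, at 18065 ± 8249 against 18002, with Apoe in the members and Ctsd, a lysosomal protease gene at 757 ± 210 against 4474, in the alveolar macrophages. Phagocytic receptor genes summed to 2233 ± 341 and 2408, with Fcgr2b, an inhibitory antibody receptor gene, at 508 ± 61.9 against 201 and Mertk at 16.6 ± 9.47 against 106. Transcription factor genes summed to 3848 ± 406 and 5056, of which Cebpb had 2105 ± 306 CPM against 3333, Spi1 (PU.1) 305 ± 93.6 against 363 and Runx3 116 ± 48.3 against 5.22. Cycling genes were present, with Mki67 at 41.8 ± 19.4 CPM against 83.2.

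By the ratio of the populations, 434 genes with at least 50 CPM were higher in members in every one of the 6 libraries and 984 were higher in alveolar macrophages. Beyond the C1q chains, those most restricted to members included Stab1, a scavenger receptor gene (123 CPM, 483-fold), Ccl8 (305-fold), Ccl7 (244-fold), the clotting factor gene F13a1 (98.6 CPM, 185-fold), Ms4a6b (110 CPM, 139-fold), Zmynd15 (82.1 CPM, 130-fold), Mgl2 (114-fold), the adhesion gene Vcam1 (65.1 CPM, 114-fold), Il1r2, a decoy interleukin-1 receptor gene (85.8 CPM, 107-fold), Folr2 (72.3 CPM, 107-fold), Gas7 (58.5 CPM, 103-fold), Ccl12 (90.6-fold) and Apoe (88.3-fold). Ighm (53.1 CPM), Plbd1 (212 CPM), Gpr183 (64.6 CPM) and Aif1 (582 CPM) followed, at 81.9-fold to 68.4-fold. Some of these folds rest on an alveolar mean carried by 1 library. Ccl8 averaged 6.24 CPM in alveolar macrophages with a highest of 35.3, and F13a1 0.532 with a highest of 3.19. Fcrls had 198 CPM in members and 7 UMIs in all alveolar macrophages of these libraries, Asgr2 116 CPM and 1 UMI, and Clec10a 57.9 CPM and 7 UMIs. Asgr2, Mgl2 and Clec10a are C-type lectin genes within 1 stretch of chromosome 11, at chr11:70092644-70106187, chr11:70130329-70137550 and chr11:70156197-70170834.

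In the other direction, the carbonic anhydrase gene Car4 had 1561 CPM in alveolar macrophages and 2 UMIs in the members of these 6 libraries, and the scavenger receptor gene Marco had 413 CPM and 1 UMI. Wfdc21 had 3285 CPM in alveolar macrophages against 13.8 (237-fold) and the cathepsin gene Ctsk 830 against 10.2 (81.6-fold). Ear1, Ear6 and Spag11b had 0 UMIs in those members and were at least 167-fold, 86.3-fold and 77.9-fold lower than in alveolar macrophages, counted against a floor of 3 UMIs over the group. Gal, Mgll and Krt79 had 151, 131 and 130 CPM in alveolar macrophages and 1, 3 and 1 UMIs in those members. None of the genes named here was among the 6 of the alveolar limit.

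The members were not uniform, and genes of perivascular macrophages separated a smaller set. Of the 8 genes in that list (Lyve1, Folr2, Timd4, Cd163, Stab1, Cbr2, F13a1 and Gas6), 139 members had none with a UMI, 67 had 1 and 30 had 2, after which the numbers were 13, 8, 13, 18, 9 and 2 for 3 to 8 genes. The list summed to 657 ± 271 CPM in members but to 745 ± 468 in epithelial barcodes, against 28.9 in alveolar macrophages. Its sum therefore does not separate the members from epithelial cells. Some members with 3 or more of its genes had over 1% AT2 UMIs, and the part of epithelial RNA in these counts was not tested. A limit of 3 genes, set after the values were seen, gave 63 members (21.1%, 95% interval 16.6 to 26.1%). They had a median of 4067 UMIs against 6068 in the others over all libraries, although within 2 weeks RFP replicate 1 and both Confetti libraries they were the deeper cells, and 46 (15.4%) passed the same limit after every cell was thinned to 2000 UMIs. All libraries held some of them: 15 of 65, 7 of 44, 6 of 34, 13 of 64, 4 of 24 and 4 of 34 in the 6 larger ones, or 11.8 to 23.1%. The smaller libraries held 3 of 3 and 5 of 11 at 4 days (RFP and YFP replicate 1), 4 of 14 in Confetti RFP and 2 of 6 in Confetti YFP.

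Mmp12 and MHC class II went with few perivascular genes. The median Mmp12 level was 8.99 UMIs per 10000 at 0 perivascular genes, 2.05 at 1 and 0.216 at 2, and it was 0 at every count from 3 to 8. MHC class II genes had medians of 593, 553 and 480 UMIs per 10000 at 0, 1 and 2 genes and 133 to 288 above. Of the 63 members, 8 had an Mmp12 UMI and 51 a Ccl12 UMI. Over all members, 122 had Mmp12 without Ccl12, 76 had Ccl12 without Mmp12, 39 had both and 62 had neither. All of Mgl2, Mmp12 and Ccl12 were found together in 38 members, and none of them in 30.

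**Figure D3:**
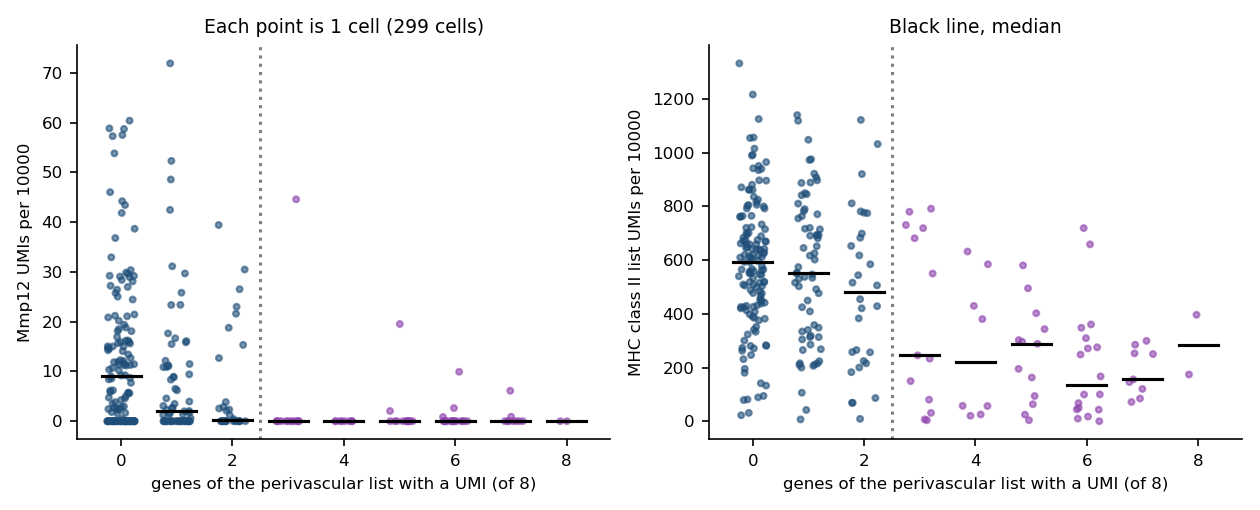
Each point is 1 of the 299 C1q-positive macrophages, placed by the number of the 8 perivascular-list genes with a UMI (x axis) and its Mmp12 UMIs (left) or MHC class II UMIs (right) per 10000 UMIs of the cell. Black marks are medians, the dotted line separates members with 3 or more genes (purple), and the Mmp12 median is 0 from 3 genes on.

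Between the members with and without 3 perivascular genes, compared as a description in the 5 libraries with at least 5 of each, several genes differed in the same direction in all 5. Ccl8 had 9258 ± 7893 CPM with and 352 ± 222 without (26.3-fold), the transcription factor gene Maf 474 ± 412 against 35.4 ± 26.9 (13.4-fold), and Ccl7 3503 ± 2180 against 338 ± 313 (10.4-fold). C4b (11.7-fold), Igfbp4 (12.2-fold), Clec10a (10.6-fold), Vcam1 (6.47-fold), the selenium carrier gene Selenop (6.52-fold) and the platelet factor gene Pf4 (6.00-fold) were higher too, as were Ccl12 (2.95-fold) and Apoe (2.66-fold). In the other direction, Mmp12 had 127 ± 127 CPM with and 1093 ± 489 without (8.58-fold), Il1b 438 ± 363 against 2218 ± 767 (5.06-fold), Lgals3 525 ± 347 against 1971 ± 239 (3.75-fold) and Cd74 12762 ± 4289 against 29239 ± 7268 (2.29-fold). H2-Ab1 (2.25-fold), H2-Eb1 (2.10-fold), Cd72 (4.05-fold) and the actin-capping gene Capg (3.95-fold) were lower as well. The perivascular genes themselves defined the split and are not listed. Mgl2 did not follow the split, at 642 ± 492 and 700 ± 222 CPM and higher in 2 of 5 libraries, and neither did C1qa, at 5717 ± 1778 and 4535 ± 1895 and higher in 4 of 5.

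Epithelial RNA was present in the members, mostly at low levels but in a few cells at very high ones. The 9 AT2 genes made up a median of 0.0767% of a member's UMIs, with library medians of 0.0225 to 0.322%, against 0.0118 to 0.309% in alveolar macrophages and 10.8 to 23.8% in epithelial barcodes. Over the 15 AT2 and airway genes together, 32 members (10.7%) had more than 1% of their UMIs from these genes and 11 had more than 10%. Those 32 had a median of 12085 UMIs against 5412 in the rest. An Epcam UMI was found in 63 members (21.1%) and in 32.1% of alveolar macrophages, and members with one had 8939 UMIs against 5034 (medians). Doublets were not called, and whether these barcodes hold 2 cells was not tested.

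Single cells could set a library's level of such a gene. One member in 2 weeks YFP replicate 2 had 24089 UMIs of Scgb1a1, a secretory airway gene, of 33358 in all (72.2%). The library's Scgb1a1 level was 113970 CPM with the members over 1% and 192 CPM without them. In Confetti YFP 1 member with 14961 Scgb1a1 UMIs of 23350 (64.1%) put the level at 355685 CPM, and it was 281 without the 2 members over 1%. The AT2 list averaged 11367 ± 11529 CPM over the 6 libraries, from 709 to 29387, and 770 CPM over the 5 libraries that kept 20 members once the 32 were left out.

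**Figure D4:**
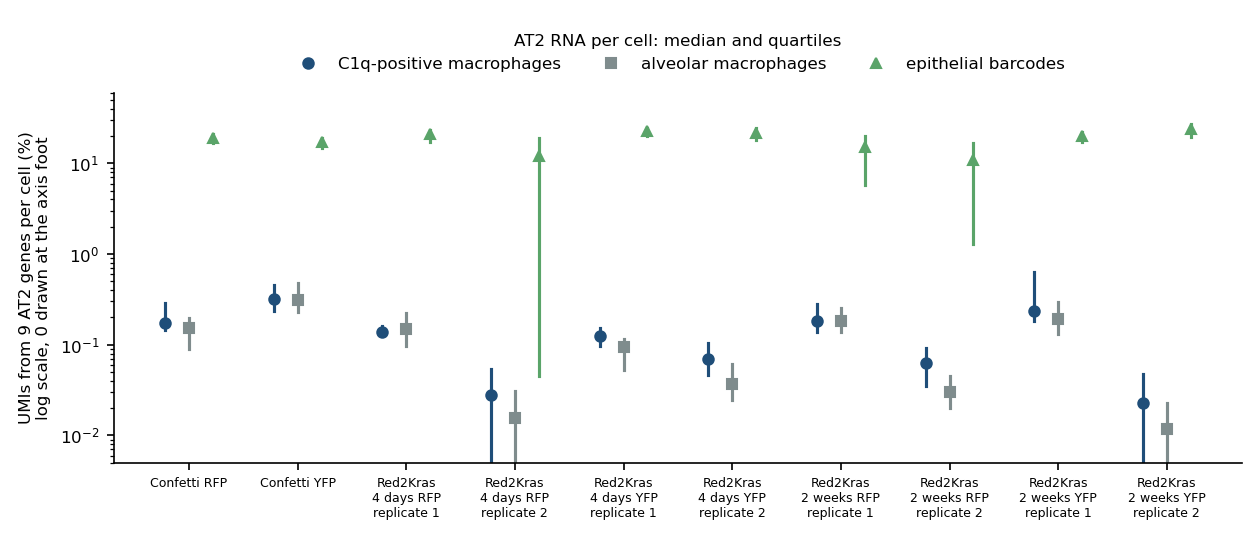
Percentage of each barcode's UMIs that come from the 9 AT2 genes, as the median with quartiles for each library in C1q-positive macrophages, alveolar macrophages and epithelial barcodes. Medians are 0.0225 to 0.322% in the first, 0.0118 to 0.309% in the next and 10.8 to 23.8% in the last.

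Between 2 weeks and 4 days after induction, few genes differed in the members, and most of those that rose were genes of epithelial cells. UMIs were summed over members in each of the 6 Red2Kras libraries with at least 20 (2 at 4 days, 4 at 2 weeks) and tested with edgeR's quasi-likelihood test with colour as a covariate. Of 3759 genes tested, 11 passed an adjusted p of 0.05, or 0.293%, with 8 higher at 2 weeks (0.213%) and 3 lower (0.0798%), and 359 (9.55%) had an unadjusted p under 0.05. The split moved with the setting, to 18 higher and 20 lower with DESeq2, 64 and 63 with no filter on low counts, and 6 and 30 with Epcam-positive members left out. Both 4-day libraries are replicate 2, so time and replicate number are not balanced. The sex make-up differed too, since 0 members of the fitted 4-day libraries had Xist UMIs, whereas 3 and 4 members of the 2-week RFP and YFP replicate 1 libraries had Xist UMIs without Y-linked ones. Xist had a log2 fold change of 7.27 ± 3.23 (edgeR adjusted p = 0.521), and the part of sex in the differences over time was not tested. The p-values measure the spread between these pooled libraries and take them as independent. By the methods, both colours were isolated from 2 Red2Kras samples at each time. RFP and YFP libraries of the same replicate number may therefore share mice, which would apply to both 4-day libraries. In that case the p-values for time may be too small.

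Genes of AT2 and AT1 cells made up 6 of the 8 that rose: the surfactant genes Sftpc (log2 fold change 4.01 ± 0.593, SE), Sftpd (4.91 ± 0.792) and Sftpb (5.05 ± 0.633), the AT2 chemokine gene Cxcl15 (4.14 ± 0.620), and the AT1 genes Aqp5 (5.68 ± 0.882) and Ager (3.93 ± 0.600). Their adjusted p in edgeR was 0.0287, or 0.0325 for Sftpd. Sftpc was at 925 and 295 CPM in the 4-day RFP and YFP libraries, 16960 and 10458 in 2-week RFP and 11335 and 2074 in 2-week YFP. The groups did not overlap, and the lowest 2-week value came from replicate 2 of YFP. Among the AT2 list, 4 of 8 tested genes rose, where 0.213% of all genes tested did. The median log2 fold change of the list was 4.07, against 0.02 over all genes tested. With members over 1% epithelial UMIs left out, 4 AT2 genes were still tested and their median was 0.30, with Sftpc at 0.33 and Sftpb at 1.51. That fit used 5 libraries, without 2 weeks YFP replicate 1. The limit counts UMIs of these same genes, so a lower level of them is built into it.

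The other risers were Hspa1a, an inducible heat shock chaperone gene, and Lrg1. Hspa1a was at 12.6 and 33.2 CPM at 4 days, 742 and 396 in 2-week RFP and 651 and 165 in 2-week YFP libraries (log2 fold change 4.26 ± 0.662, edgeR adjusted p = 0.0287). The same gene in epithelial barcodes of these libraries was at 102 and 58.0 CPM at 4 days and 1254, 783, 1750 and 401 at 2 weeks, and in alveolar macrophages at 39.2 and 46.9 and then 336, 73.3, 463 and 40.2. Of the 8 heat shock genes, all tested, this 1 rose and passed, where 0.213% of all genes tested did. All 8 had positive values, 5 of them at an unadjusted edgeR p under 0.05, as had 160 of all 3759 genes. Their median was 1.63, against 0.02 over all genes tested. It was 0.85 over the 6 still tested with members over 1% epithelial UMIs left out. Hspa1b had 3.54 (adjusted p = 0.180). Lrg1 was at 12.6 and 3.69 CPM at 4 days and 257, 258, 93.8 and 23.6 at 2 weeks (4.02 ± 0.615). With members over 1% epithelial UMIs left out, Lrg1 did not pass the filter on low counts and has no value. The part of epithelial RNA in its rise was not tested.

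The 3 that fell were Ly6a, the secretory airway gene Scgb3a2 and Gm15056. Ly6a, an interferon-inducible surface protein gene, was at 287 and 543 CPM at 4 days and at 78.6, 56.6, 111 and 170 at 2 weeks (log2 fold change -2.11 ± 0.316, adjusted p = 0.0287). Scgb3a2 was at 249 and 155 CPM at 4 days and at 53.2, 15.7, 17.6 and 37.8 at 2 weeks (-2.84 ± 0.471, adjusted p = 0.0373). Gm15056 was at 56.8 and 59.1 CPM at 4 days and at 2.31 and then 0 in the other 3 (-5.94 ± 0.932, adjusted p = 0.0287), and it had no UMI in alveolar macrophages or epithelial barcodes. When members with over 1% epithelial UMIs were left out, an alternative added after seeing the data, 0 genes passed in 5 libraries (262 with an unadjusted p under 0.05); 2 weeks YFP replicate 1 then had 18 members and was not fitted, and leaving out that library alone gave 6 calls. Hspa1a then had 3.83 ± 0.602 (edgeR adjusted p = 0.0773), Gm15056 -5.60 and Ly6a -2.44 (both 0.0902). Leaving out either 4-day library left 1 library at 4 days, with the spread taken from the others, so no calls are given for it. The calls therefore rest on both 4-day libraries, and none of the 11 genes changed sign without either of them. With all C1q genes at 2 UMIs or more, 0 passed (333 unadjusted).

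**Figure D5:**
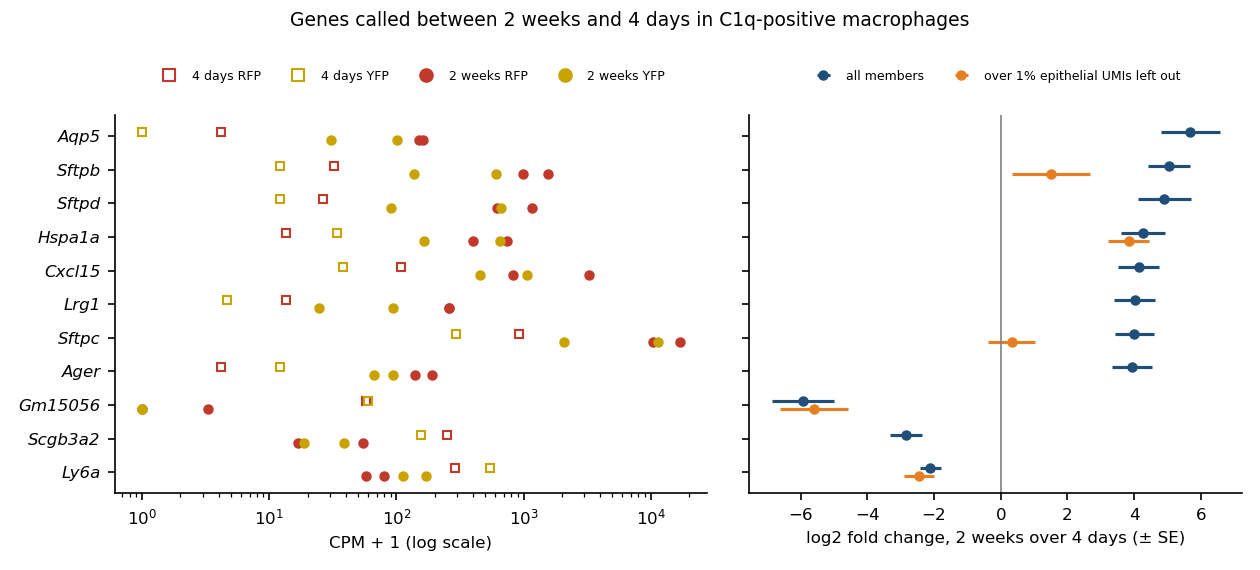
Left, CPM in C1q-positive macrophages of the 11 genes that passed, in the 2 libraries at 4 days (open squares) and the 4 at 2 weeks (filled circles). Right, log2 fold change ± SE of 2 weeks against 4 days with all members and with members over 1% epithelial UMIs left out (5 libraries, without 2 weeks YFP replicate 1), where Sftpc goes from 4.01 to 0.33 and Hspa1a from 4.26 to 3.83.

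None of the macrophage lists named here held a gene that passed between the time points. Only 0.293% of all 3759 genes passed, so 0 calls in lists this short says little about them. The C1q chains chose the members, so their log2 fold changes of 0.07 (C1qa), 0.10 (C1qb) and -0.26 (C1qc) are a description and no test. Mgl2 had 0.36 ± 0.271 (edgeR adjusted p = 0.771), Mmp12 0.93 ± 0.358 (0.454) and Ccl12 -1.08 ± 0.497 (0.535). MHC class II genes (9 tested) had a median of -0.13, pan-macrophage genes (11) -0.02, interstitial macrophage genes (11) 0.31, perivascular genes (6) -0.66 and inflammatory cytokine genes (10) -0.13, with 0 called in each. In chemokine genes (16 tested, median -0.61) 6 had an unadjusted p under 0.05, all of them lower at 2 weeks, where 199 of all 3759 genes (5.29%) were lower at that p, among them Ccl7 at -1.59 ± 0.316 (adjusted p = 0.0845) and Ccl8 at -1.63 ± 0.398 (0.156). Of the 12 interferon response genes 4 were tested, all with lower values at 2 weeks at an unadjusted p under 0.05 (5.29% of all genes tested) and 0 passed, with a median of -1.59 and Isg15 at -1.31 (adjusted p = 0.180), and the median was -1.28 with members over 1% epithelial UMIs left out.

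Between RFP and YFP libraries, 0 of 3759 genes (0%) passed edgeR's quasi-likelihood test with time as a covariate, where 91 (2.42%) had an unadjusted p under 0.05, and DESeq2 also called 0 (50 unadjusted). Every adjusted p named here was 0.999. The genes of lowest p that were higher with RFP were Lrg1 (1.99 ± 0.458), the lectin gene Cd209a (2.37 ± 0.553), Ccl7 (1.18 ± 0.317), Lpcat1 (1.48) and Sftpb (1.65), of which Sftpb was at -0.0245 with Epcam-positive members left out. Those lower were the calcium-binding gene S100a6 (-0.92 ± 0.218), AU040972 (-3.34), Cxcl3 (-3.26), Ly6a (-1.14) and Rfxap (-1.34). Cd209a was at 25.2 CPM in the 4-day RFP library and 3.69 in the YFP library. At 2 weeks it was at 67.0 and 81.8 in RFP against 5.86 and 18.9 in YFP libraries. The lowest of these values rest on very few UMIs, and the gene was named for its low p. The markers outside the rule had log2 fold changes of 0.16 for Mgl2, 0.07 for Mmp12 and 0.80 for Ccl12.

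Against Confetti, the mouse line differed together with the sex make-up of the pools and, for the 4-day libraries, with time, and their parts in the differences were not tested. Of the Confetti members 13 of 14 and 6 of 6 had Xist UMIs and 0 had UMIs of the Y-linked genes checked (Ddx3y, Eif2s3y, Uty and Kdm5d), while in the 4 replicate 2 libraries of Red2Kras 0 members had Xist UMIs and 11 to 39 had those of the Y-linked genes. The replicate 1 libraries of Red2Kras were mixed: among epithelial barcodes with UMIs of one kind only, those with Xist made up 81.9% and 84.5% in the 4-day RFP and YFP libraries and 34.7% and 24.5% in the 2-week ones. No Confetti library had 20 members, so the planned fit could not be made, and all 10 libraries were fitted with no minimum of cells (2 Confetti libraries with 14 and 6 members), an alternative added after seeing the data. Of 3210 genes, 8 passed edgeR's quasi-likelihood test, or 0.249%, all of them lower in Red2Kras, and 313 (9.75%) had an unadjusted p under 0.05. They were the eotaxin gene Ccl24 (-5.09 ± 0.949), Ccdc163 (-4.73 ± 0.800), the carboxylesterase gene Ces1d (-3.68 ± 0.684), Gm47283 (-2.85 ± 0.476), Cbr2 (-2.76 ± 0.538), Gstm1 (-2.74 ± 0.572), Crip2 (-2.29 ± 0.443) and the tubulin gene Tuba1a (-2.13 ± 0.401), with adjusted p of 0.0147 to 0.0458. The annotation places Gm47283 on chromosome Y, at chrY:90784738-90816464, and it was at 594 CPM in Confetti YFP, higher still in Confetti RFP, and at 0 to 148 CPM in Red2Kras members.

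These calls rested on both Confetti libraries. The methods count 1 Confetti sample with both colours isolated, so these libraries may be 1 pool, which the fit took as independent libraries. Without Confetti RFP 3 genes passed, of which 1, Ccl24, was among the 8, and without Confetti YFP 1 passed, Ccdc163; the lone library was then assumed to vary like the others. Ccl24 was at 83.3 CPM in Confetti RFP and 903 in Confetti YFP, or 2028 there without the member that held 23350 of 42085 UMIs. In Red2Kras it was at 510 (4 UMIs) and 132 in the 4-day replicate 1 libraries and at 0 to 28.3 in the other 6, so the lines overlapped. Cbr2, a carbonyl reductase gene also used as a perivascular marker, was at 1416 and 2471 CPM in Confetti members and 89.6 to 1529 in Red2Kras members, while epithelial barcodes had 3296 and 3444 CPM in Confetti and 95.8 to 3061 in Red2Kras. Of the 104 Cbr2 UMIs in Confetti YFP, 85 were in the member with 14961 Scgb1a1 UMIs, and the level was 1014 CPM without it, below the 1529 of 4 days RFP replicate 1. With members over 1% epithelial UMIs left out 1 gene passed, Ccl24 (-5.69 ± 0.909, adjusted p = 0.00698). With all members, Cbr2 was the 1 perivascular gene of 7 tested that passed and Ccl24 the 1 chemokine gene of 17, against 0.249% of all genes tested; Cbr2 no longer passed with the members over 1% left out.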

How the data were processed

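The deposited files were 10x Genomics gene by barcode matrices of UMI counts for 31053 mouse features in 10 libraries, made by the authors with Cell Ranger on GRCm38 and not normalized. The submitters' processing notes name Cell Ranger 3.1.0 with FastQC 0.11.3 and MultiQC 1.8, and the matrix headers name Cell Ranger 5.0.1, so the version that made these counts is not settled. The kit is given as v2 chemistry in the labels and v3 in the methods. The authors left out immune clusters from their own analysis.

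Here, barcodes were kept at 1000 genes or more, 50000 UMIs or fewer and 15% mitochondrial UMIs or less. Doublets were not called. UMIs were summed over members in each library, and CPM were computed on these sums with no division by gene length. Contrasts used edgeR 4.0.16 in R 4.3.3 (quasi-likelihood F test, TMM, filterByExpr, Benjamini-Hochberg over all genes tested, threshold 0.05), with DESeq2 1.42.0 as an alternative. Shares were compared by exact permutation in scipy 1.17.1. The fit was tested on simulated counts. The members and gene lists were chosen with earlier results of these data known. Genes were named by rule: the rule genes and markers, list members with the highest levels first, up to 10 genes rising and 10 falling in a contrast (or the 5 of lowest p in each direction where fewer than 5 passed), and the 20 and 10 largest ratios to alveolar macrophages at 50 CPM or more. The members with 3 of 8 perivascular genes, the genes that differed between them, and Hspa1b and Tnf were chosen after values were seen. Positions are from GENCODE M21 on GRCm38. The promoter of C1qa was not used here, and some genes are not reported here.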

Additional observations from a re-analysis of the deposited data

Results flagged for a closer look

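Among the 2-week Red2Kras libraries, the summed level of airway and ciliated genes in C1q-positive macrophages was 114201 CPM in YFP replicate 2 and 631 to 10356 CPM in the other 3, far enough apart to pass Dixon's test for a group of 4. In that library 1 member held 24089 of the Scgb1a1 UMIs. The endothelial list was at 4.62 CPM (2 UMIs) in 2 weeks RFP replicate 1 and at 0 in the other 3; with 3 values at 0 any UMI passes this test, so it says nothing about that library. In all, 49 groups of 4 libraries were tested this way and 2 passed, this one included, where chance alone gives about 1 in 20.

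Barcodes outside the quality limits also carried the C1q pattern: 68 of the 9314 left-out barcodes (0.730%) had all C1q genes and fewer than 4 alveolar macrophage genes, with 1 to 15 in each library. They outnumbered the members in 4 days RFP replicate 1 (9 against 3) and Confetti YFP (13 against 6). With the quality limits off, the shares there were 0.249% and 0.306%, against 0.0782% and 0.144% with them.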

How the results depend on the processing

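Directions of the share comparisons were not stable, and none passed under any alternative run (raw p of 0.286 to 0.971 for RFP against YFP, 0.314 to 1 for time and 0.139 to 0.489 for Red2Kras against Confetti). Some of these runs could not have passed 0.05. Exact permutation within replicate numbers has a smallest possible p of 0.0556, and leaving out a Confetti library left 1 there. Among Ptprc-positive barcodes, where only members with a Ptprc UMI were counted (0 in Confetti YFP), RFP against YFP was -0.249 points. It was -0.224 (without 4 days RFP replicate 2) to 0.998 (without 4 days RFP replicate 1) with 1 library left out. Time was 0.00846 with no alveolar limit, and -0.639 to 0.583 with 1 library left out (0.0654 without 2 weeks YFP replicate 1). Time was -3.82 among Ptprc-positive barcodes. Red2Kras against Confetti kept its direction, at 0.778 to 1.30 with 1 library left out and up to 6.11 among Ptprc-positive barcodes. The 11 genes called over time became 38 with DESeq2 (all 11 among them), 127 with no filter on low counts, 20 with no minimum of cells, 36 with Epcam-positive members left out (in 5 libraries, as 2 weeks YFP replicate 1 kept 17; 5 shared with the 11; 6 rose and 30 fell, against 8 and 3), 0 with C1q at 2 UMIs or more, and 0 with members over 1% epithelial UMIs left out (also at 10 cells or more, with 163 at an unadjusted p under 0.05, as with Epcam-positive members left out at 10 cells, with 120). With 1 of the 2-week libraries left out the count was 6 to 32, with 6 without 2 weeks YFP replicate 1 and 26 without 2 weeks YFP replicate 2. Without either 4-day library 1 library was left at that time, so no count is given. No named gene of this contrast changed sign. Without TMM scaling the median of all genes was 0.16 for time and 0.13 for colour. RFP against YFP gave 22 calls with no filter, and Sftpb there turned to -0.0245 (Epcam-positive members left out), -0.77 (the same at 10 cells) and -0.72 (members over 1% left out at 10 cells). Against Confetti the 8 calls became 1 at 10 cells or more (Ccdc163), 1 with members over 1% left out, 26 with DESeq2 (7 shared with the 8) and 1 to 15 with 1 library left out; the other settings at 20 cells could not be run, as no Confetti library had 20 members. The causes were not tested. With the replicate number as a block, time gave 17 calls (10 shared with the 11), colour 0, and the share tests p = 0.556 and 0.944 in exact permutation within numbers. With time and replicate number together as the block, added after seeing the data, colour gave 0 calls (182 at an unadjusted p under 0.05; 3 pairs, edgeR), the 10 named genes kept their direction, and the RFP against YFP share had p = 0.75 (exact permutation, smallest possible 0.125). Deviations of same-numbered libraries correlated at 0.275 within 4 days and 0.434 within 2 weeks but at -0.006 to 0.092 between times. The numbers were therefore not taken to pair libraries across times. The labels name no shared pool, while by the methods both colours were isolated from 2 Red2Kras samples at each time. Members per library, 3 to 65, limit the precision.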
